A study of Mus musculus with 6 samples.

Results

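The 10 genes described here encode heat shock chaperones and their partners: Hspa1a, Hspa1b, Hspa8, Hsp90aa1, Hsp90ab1, Hsph1, Dnaja1, Dnajb1, Hspb1 and Hspe1. They were taken by gene symbol, and all 10 passed the filter on low reads, among 17152 genes tested in all. RNA was sequenced in 3 libraries of Pax7WT and 3 of Pax7KR satellite cells, which are the resident stem cells that muscle draws on for repair. Pax7KR mice are homozygous for a change made with CRISPR/Cas9 that puts arginine in place of a lysine of PAX7 that can be acetylated. Pax7 encodes the transcription factor that marks satellite cells, and Pax7WT mice are wild-type littermates. All mice were young adults on the C57BL/6J background with uninjured hindlimb muscle. The change is present in every cell of the mouse from the zygote on, so an effect within satellite cells and one from other tissues cannot be told apart. In both groups the muscle was minced, digested with collagenase and dispase in a heated dissociator, and the cells were sorted as α7-INTEGRIN+ CD34+ and negative for CD31, CD11b, SCA-1 and CD45. Cells were not fixed before digestion, and muscle without digestion was not analysed here, so a level in the animal and a level reached during isolation cannot be told apart for any of the genes.

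Each library held between 17822367 and 27908054 estimated reads, and no pair of libraries agreed within sampling noise. The 12 markers of satellite cells, Pax7 and Myf5 among them, summed to between 6509 and 7144 CPM, the count scaled to library size. The 9 immune markers summed to between 9.96 and 14.2 CPM, the 4 Schwann cell markers to between 57.4 and 100 CPM, the 10 endothelial markers to between 286 and 413 CPM, the 7 fibro-adipogenic markers to between 635 and 718 CPM, the 6 smooth muscle and pericyte markers to between 267 and 375 CPM, the 10 myofibre markers to between 45.8 and 63.5 CPM and the 5 erythroid markers to between 190 and 556 CPM. Dpt alone made up 571 to 633 CPM of the fibro-adipogenic sum, with the other 6 genes at 0.804 to 45.3 CPM each, and Tek alone 184 to 231 CPM of the endothelial sum, with the other 9 genes at 2.21 to 50.4 CPM each. None of these markers was at 0 in all libraries. Pax7WT replicate 3, the library that stood apart for the chaperone genes, had the highest share of reads from the mitochondrial genome (5.78%, against 4.24 to 5.50% in the others). It also had the highest sum of Schwann cell markers and of smooth muscle and pericyte markers (375 CPM, against 267 to 365 CPM in the others). A point mutation leaves the reads of Pax7 in place, so the genotype labels could not be checked from its level.

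Chaperones bind unfolded proteins and help them to reach or keep their folded form. HSP70 proteins hold short exposed stretches of a client in a cycle driven by ATP, J-domain proteins bring the clients and start ATP hydrolysis, and HSP110 proteins exchange the nucleotide. HSP90 proteins act later, on kinases, receptors and other clients that are nearly folded. Small heat shock proteins hold unfolded proteins without ATP, and HSPE1 is the lid of the mitochondrial folding chamber built from HSPD1. When unfolded proteins accumulate, heat shock factor 1 is released from chaperones, forms trimers and binds heat shock elements, which are inverted repeats of the unit GAA with spacers between the units. Some family members are made in all growing cells, such as Hspa8 and Hsp90ab1, and others, such as Hspa1a and Hspa1b, are known for a steep rise upon stress.

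RefSeq promoter entries (GRCm38.p6) were matched for 7 of the 10 genes and not for Hspa8, Hsp90aa1 and Hsp90ab1. Hsph1 and Dnajb1 have 2 entries each and Dnaja1 has 3. For these genes only the entry nearest the GENCODE start of the gene was read. The stretches that hold the letters of a heat shock element are printed because that element is what the stress-induced members of the family are known to share. Each runs 5′ to 3′ on the strand of its gene, with the paired units in capitals, and the one of Hspa1a is also that of Hspa1b, letter for letter.
Hspa1a: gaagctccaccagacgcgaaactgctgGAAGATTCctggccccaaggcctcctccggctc
Hspb1: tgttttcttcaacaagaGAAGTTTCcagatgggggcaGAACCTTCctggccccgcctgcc
Hsph1: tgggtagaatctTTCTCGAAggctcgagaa
Dnaja1: aaaaagcctctaGAAAATTCtacgaggctc
Hspe1: cggtccgTTCTAGAACCTTCCGGAAggccc
The stretches lie at chr17:34972228-34972287 (Hspa1a, minus strand), chr17:34959310-34959369 (Hspa1b, minus strand), chr5:135887785-135887844 (Hspb1, plus strand), chr5:149636352-149636381 (Hsph1, minus strand), chr4:40722332-40722361 (Dnaja1, plus strand) and chr1:55088052-55088081 (Hspe1, plus strand).
In the 250 bases before the RefSeq start, 6 of the 7 promoters held GAANNTTC or TTCNNGAA, each of which reads the same on both strands. Of 32536 mouse promoters of the same length, 12.9% did. The run of 3 units, TTCNNGAANNTTC or its reverse GAANNTTCNNGAA, was found among the 7 in Hspe1 alone and in 0.470% of all promoters; it overlaps the pairs. Dnajb1 held neither pair in this window. In GENCODE M21 some transcripts start further upstream, so that the printed stretch of Hsph1 overlaps an exon of Hsph1 itself and that of Dnaja1 overlaps exons of Dnaja1 and Gm6297. That of Hspe1 overlaps an exon of Hspd1, on the other strand, and the remaining stretches overlap none. The promoters of Hspa1a and Hspa1b were identical in 98.8% of 250 bases, with the differences C44T, T47C and T249G (Hspa1a base first, positions counted from 1 at the 5′ end). A match of letters is not a measured binding site, and the sites of the factor were not measured in these samples.

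Levels were set against each other as TPM, a share of all transcripts that takes transcript length into account. Hspa1b stood 25th and Hspa1a 39th among all genes by mean TPM, ahead of their constitutive relative Hspa8 at 71st and of Hsp90ab1 at 110th. Hspa1a and Hspa1b both encode the stress-inducible HSP70. The TPM of Hspa1b was 3293, 3608 and 5122 in Pax7WT replicates 1 to 3 and 3606, 3860 and 3292 in Pax7KR replicates 1 to 3. That of Hspa1a was 2601, 2597 and 3723 in the Pax7WT libraries and 2647, 2972 and 2541 in the Pax7KR libraries. Hspa1b lay above Hspa1a in 6 of 6 libraries, but 65.4% of the 31-base stretches of Hspa1a occur in other genes too, nearly all of them in Hspa1b, so the division of reads between the genes is uncertain. Together the pair took 0.862 to 1.31% of all reads, and the 10 genes took 1.05 to 1.46% of all TPM. In bulk samples a level over all cells does not tell a share of cells with more RNA from more RNA in each cell.

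Hspa8, the HSP70 that cells make without stress, lay between 2073 and 2409 TPM, and Hsp90ab1, the constitutive HSP90, between 1392 and 1551 TPM. A step down came Hspb1, the small heat shock protein HSP25 of the mouse, at 372 to 634 TPM, and Hsp90aa1, the stress-inducible HSP90, at 323 to 404 TPM. These 6 genes kept their order in every library: Hspb1 was above Hsp90aa1 in 6 of 6, with a mean log2 ratio of 0.34 and an SD of 0.24. The J-domain genes Dnaja1 and Dnajb1, the HSP110 gene Hsph1 and Hspe1 shared 1 level of TPM summed over all transcripts, with means between 152 and 158. The neighbours among them changed places from library to library. Hsph1, for example, was above Hspe1 in 2 of 6 libraries, and the mean log2 ratio of −0.08 was smaller than its SD of 0.54. For Dnaja1 and Hsph1 most of the summed TPM was on transcripts not annotated as coding.

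**Figure D1:**
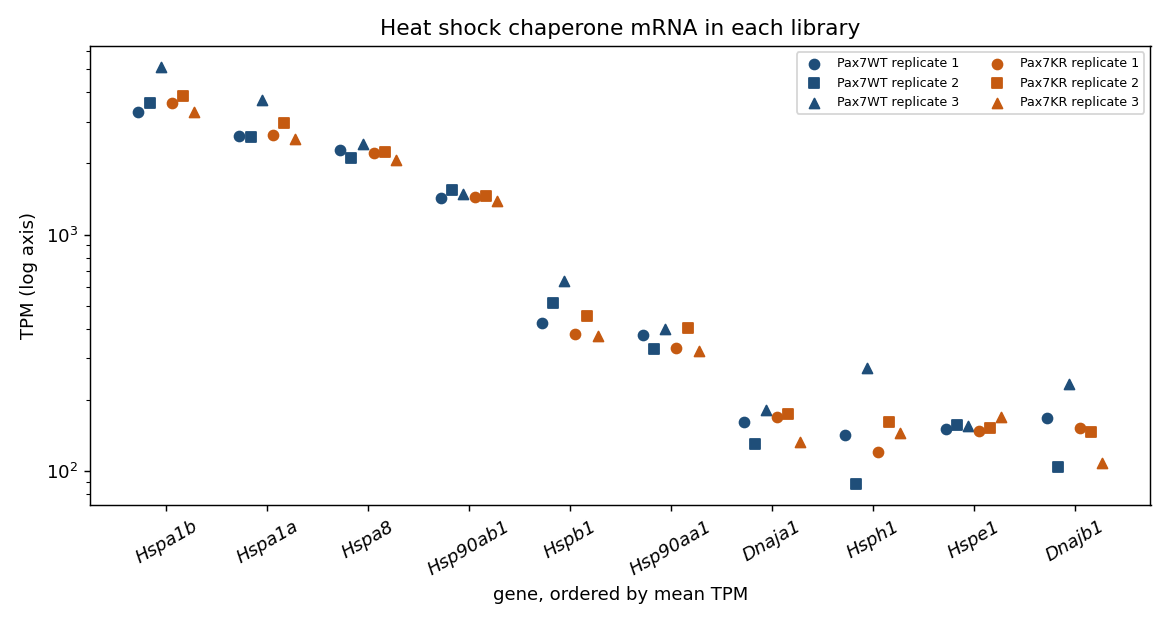
TPM on a log axis for each chaperone gene in each of the 6 libraries, blue for Pax7WT and orange for Pax7KR, with a symbol for each replicate number. Hspa1b, Hspa1a, Hspa8 and Hsp90ab1 lie at or above 1392 TPM in all libraries. The Pax7WT replicate 3 triangle is the top point for Hspa1b, Hspa1a, Hspa8, Hspb1, Dnaja1, Hsph1 and Dnajb1.

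The genotypes were compared gene by gene with edgeR's quasi-likelihood test on normalised reads, with p-values adjusted over all genes tested. All coordinates of genes are those of GENCODE M21 on GRCm38. None of the 10 chaperone genes passed the cut-off of 0.1, and neither did any other gene (0% of 17152). At an unadjusted p under 0.05 the test gave 1 of the 10, Hspb1, where 4.68% of all genes lay. By DESeq2, 0 of the 10 passed the adjusted cut-off (0.175% of all genes) and 2 had an unadjusted p under 0.05, Hspb1 and Hsp90ab1 (3.98% of all genes). All 10 fitted log2 fold changes were below 0, that is lower in Pax7KR, with a median of −0.17, against 51% of all genes below 0 with a median of −0.0037. Without Pax7WT replicate 3, 7 of the 10 were below 0 and the median was −0.05, and without Pax7WT replicate 2 all 10 were below 0 with a median of −0.27. The genes share their libraries, so their 10 signs are not 10 separate observations.

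Among the HSP70 genes, Hspa1a (ENSMUSG00000091971, chromosome 17, 34969190 to 34972156) and Hspa1b (ENSMUSG00000090877, chromosome 17, 34956436 to 34959238) lie 9951 bases apart on the minus strand. The CPM of Hspa1a was 4084, 4156 and 5883 in Pax7WT replicates 1 to 3 and 4011, 4516 and 3961 in Pax7KR replicates 1 to 3. The Pax7WT replicate 3 library stood above all others, and the remaining Pax7WT values fell within the range of the Pax7KR libraries. For Hspa1a the log2 fold change was −0.18 ± 0.14 (SE, edgeR adjusted p = 0.998) and 0.015 without that library. Hspa1b had 4706, 5259 and 7404 CPM in Pax7WT and 4960, 5336 and 4671 CPM in Pax7KR. Again 1 Pax7WT library was far above a common range, and the log2 fold change of −0.21 ± 0.16 (SE, edgeR adjusted p = 0.992) was 0.0015 without it. With the reads of both genes added up, the log2 fold change was −0.20 (SE 0.15).
For Hspa8 (ENSMUSG00000015656, chromosome 9, 40800984 to 40810087), 2437, 2232 and 2603 CPM were found in Pax7WT and 2225, 2251 and 2135 CPM in Pax7KR. These groups overlapped by a narrow margin: 2 Pax7KR libraries lay below the lowest Pax7WT library. A log2 fold change of −0.14 ± 0.08 (SE, edgeR adjusted p = 0.992) was fitted with all libraries, and one of −0.08 without Pax7WT replicate 3.

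Of the HSP90 genes, Hsp90ab1 (ENSMUSG00000023944, chromosome 17, 45567775 to 45573271) was the steady one, at 2028, 2155 and 2020 CPM in Pax7WT and 1870, 1925 and 1924 CPM in Pax7KR. It was the single member whose groups did not overlap in CPM, where 10.3% of all genes showed no overlap, and 5.19% showed none with Pax7KR lower. In TPM its groups overlapped, with Pax7KR replicates 1 and 2 at 1440 and 1459 and Pax7WT replicate 1 at 1427. The log2 fold change of −0.12 ± 0.07 (SE, edgeR adjusted p = 0.992) ranged from −0.13 to −0.09 when single libraries were left out. Hsp90aa1 (ENSMUSG00000021270, chromosome 12, 110690605 to 110702728) was at 367, 297 and 402 CPM in Pax7WT and at 302, 344 and 312 CPM in Pax7KR. Its lowest and its highest library were both Pax7WT, with all Pax7KR libraries between them, and the log2 fold change was −0.16 ± 0.10 (SE, edgeR adjusted p = 0.992). It was −0.27 without Pax7WT replicate 2 and −0.058 without Pax7WT replicate 3.

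Among the partners of HSP70, Hsph1 and Dnajb1 had the widest ranges of the 10 genes. Hsph1 (ENSMUSG00000029657, chromosome 5, 149614287 to 149636376), which encodes the HSP110 protein that exchanges nucleotide on HSP70, was at 180, 123 and 326 CPM in Pax7WT and 151, 197 and 190 CPM in Pax7KR. The Pax7WT libraries enclosed all Pax7KR libraries, and the highest was 2.64 times the lowest. The log2 fold change of −0.23 ± 0.42 (SE, edgeR adjusted p = 0.998) turned to 0.24 (SE 0.21) without Pax7WT replicate 3. Dnajb1 (ENSMUSG00000005483, chromosome 8, 83608193 to 83612653), a J-domain protein known to be induced by stress, had 296, 185 and 408 CPM in Pax7WT and 253, 246 and 187 CPM in Pax7KR. Here too both the lowest and the highest value were Pax7WT. Its log2 fold change was −0.37 ± 0.34 (SE, edgeR adjusted p = 0.998) and −0.07 without Pax7WT replicate 3. Dnaja1 (ENSMUSG00000028410, chromosome 4, 40722150 to 40737149), the J-domain partner taken here as constitutive, ran over a narrower range, 157, 132 and 186 CPM in Pax7WT and 148, 149 and 130 CPM in Pax7KR. The groups overlapped, with a log2 fold change of −0.15 ± 0.12 (SE, edgeR adjusted p = 0.998) and of −0.026 without Pax7WT replicate 3.

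Hspb1 (ENSMUSG00000004951, chromosome 5, 135887919 to 135889563) had the lowest unadjusted p of the 10 genes. Its CPM was 170, 211 and 255 in Pax7WT and 148, 177 and 149 in Pax7KR. In Pax7KR 2 libraries lay below all Pax7WT libraries, and replicate 2 lay just above the lowest of them. The log2 fold change was −0.42 ± 0.16 (SE, edgeR adjusted p = 0.992), and it was −0.27 without Pax7WT replicate 3. With no filter on low reads, edgeR called Hspb1, at a log2 fold change of −0.42 (adjusted p = 0.0294), and none of the other 9 genes, where 0.652% of 24068 genes were called. Of its 31-base stretches 52.3% occur also in the pseudogene Hsp25-ps1, which was given 0 reads. Hspe1 (ENSMUSG00000073676, chromosome 1, 55088132 to 55091307), on 1017 to 1479 reads a library, was at 54.4, 57.4 and 59.0 CPM in Pax7WT and 50.4, 52.5 and 60.1 CPM in Pax7KR. Its groups overlapped, and its log2 fold change was −0.07 ± 0.08 (SE, edgeR adjusted p = 0.998), at −0.017 without Pax7KR replicate 1 and −0.14 without Pax7KR replicate 3. Hspe1 and Hspd1 lie on opposite strands and their ends overlap.

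**Figure D2:**
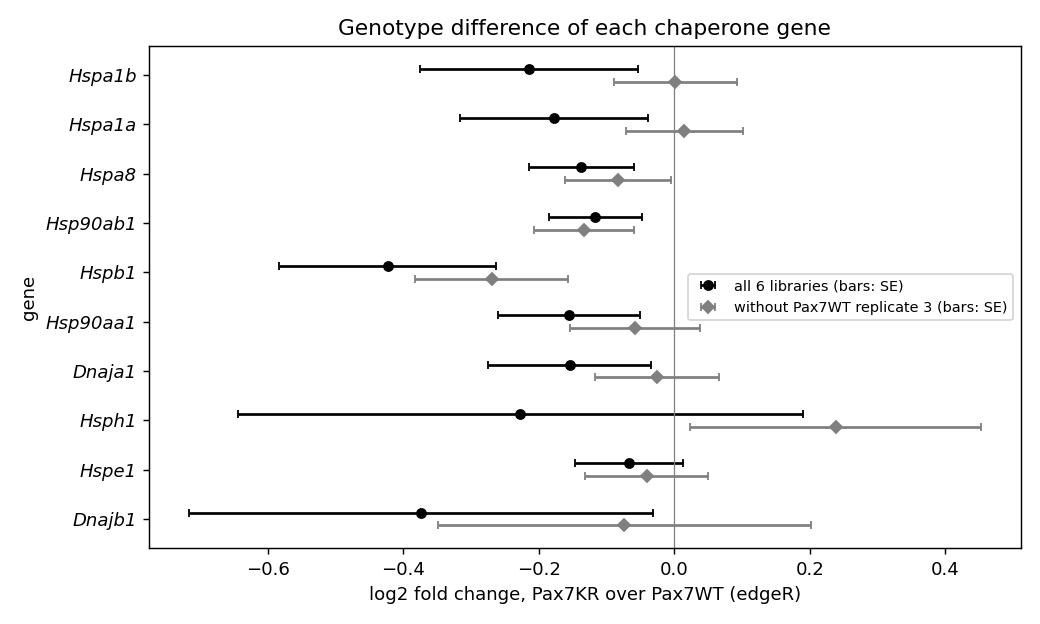
Log2 fold change of Pax7KR over Pax7WT (horizontal axis) for each gene, from all 6 libraries (black circles) and without Pax7WT replicate 3 (grey diamonds), with bars for 1 SE. The black circles all lie left of 0, and the grey diamonds of Hspa1a, Hspa1b and Hsph1 lie at 0.015, 0.0015 and 0.24.

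Pax7WT replicate 3 was the highest of the 6 libraries for 8 of the 10 genes, where it was the highest for 16.8% of all genes and for 10.6% of the 3933 genes at least as abundant as the least abundant member. The exceptions were Hsp90ab1, highest in Pax7WT replicate 2, and Hspe1, highest in Pax7KR replicate 3. Its CPM was 1.94 times the mean of the other 5 libraries for Hsph1, 1.75 times for Dnajb1, 1.49 times for Hspb1, 1.48 times for Hspa1b and 1.42 times for Hspa1a. For Hspa8 the same library was at 1.15 times. The share of reads from the mitochondrial genome and the sums of Schwann cell markers and of smooth muscle and pericyte markers were highest in the same library; their part in the result was not tested.
Within a genotype, the SD of log2(CPM + 1) had a median of 0.21 over the 10 genes, against 0.14 over all genes and 0.08 over those 3933 genes. Hsph1, at 0.52, varied more than 99.5% of these abundant genes, and Dnajb1, at 0.44, more than 99.0%. At the other end Hsp90ab1, at 0.04, varied more than 10.2% of them. The SD was larger in Pax7WT than in Pax7KR for 9 of the 10 genes, and for 61.5% of the abundant genes. Hspe1 was the exception.

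**Figure D3:**
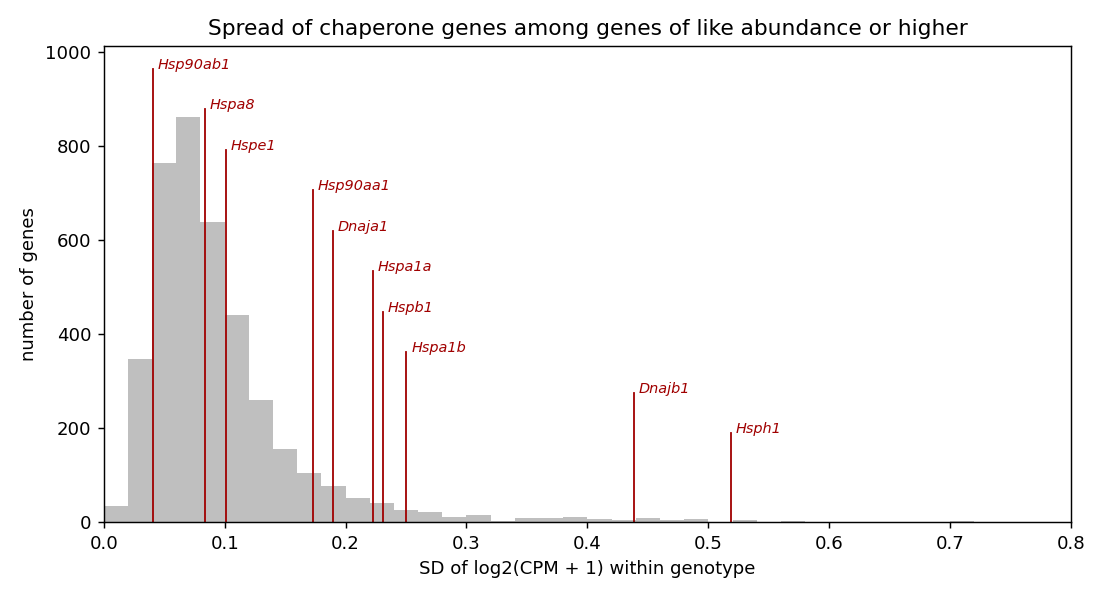
Number of genes (vertical axis) by SD of log2(CPM + 1) within genotype (horizontal axis), for the 3933 genes with a mean CPM of at least that of Hspe1, and red lines for the 10 chaperone genes, whose height has no meaning. Hsp90ab1 and Hspa8 lie within the bulk of the genes, while Dnajb1 and Hsph1 lie far to the right, and 4 genes with an SD above 0.8 are not drawn.

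Over the 6 libraries, the correlation of each gene with the mean of the other 9 was between 0.77 and 0.93 for Hspa1a, Hspa1b, Hspa8, Hsp90aa1, Hsph1, Dnaja1, Dnajb1 and Hspb1, and 0.23 for Hsp90ab1 and 0.29 for Hspe1. These values are a description over 6 points that share their libraries. They rest in large part on Pax7WT replicate 3. Without it the value for Hspa1b went from 0.87 to 0.025 and that for Hsph1 from 0.77 to −0.030, while Hspa8 kept 0.71.

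Immediate early genes, which are induced within minutes by many stimuli and in satellite cells by tissue dissociation, had another order of libraries. Of 24 such genes, 20 were lowest in Pax7WT replicate 2 and 6 were highest in Pax7WT replicate 3; of the chaperone genes, 3 were lowest in Pax7WT replicate 2, where 18.5% of all genes were. Their summed CPM was 39962, 21000 and 37368 in Pax7WT replicates 1 to 3 and 29989, 34976 and 31578 in Pax7KR replicates 1 to 3. In this sum Pax7WT replicates 1 and 3 were alike. The chaperone genes had a summed CPM of 14480, 14808 and 19546 in Pax7WT, with replicates 1 and 2 alike. That likeness is one of the sum, which rests mostly on Hspa1a, Hspa1b, Hspa8 and Hsp90ab1. Pax7WT replicate 2 was below replicate 1 for Hsph1 (123 against 180 CPM), Dnajb1 (185 against 296 CPM), Hsp90aa1, Dnaja1 and Hspa8. It was above replicate 1 for Hspa1a, Hspa1b, Hsp90ab1, Hspb1 and Hspe1. Egr1, Fos and Egr3 all had their lowest value in Pax7WT replicate 2, Egr1 at 5425 CPM against 7545 to 10803 CPM in the others. The log2 fold change between genotypes was −0.04 for Egr1 (SE 0.29), −0.08 for Fos (SE 0.28) and −0.82 for Egr3 (SE 0.39), and 0 of the 24 genes passed the adjusted cut-off in edgeR.

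**Figure D4:**
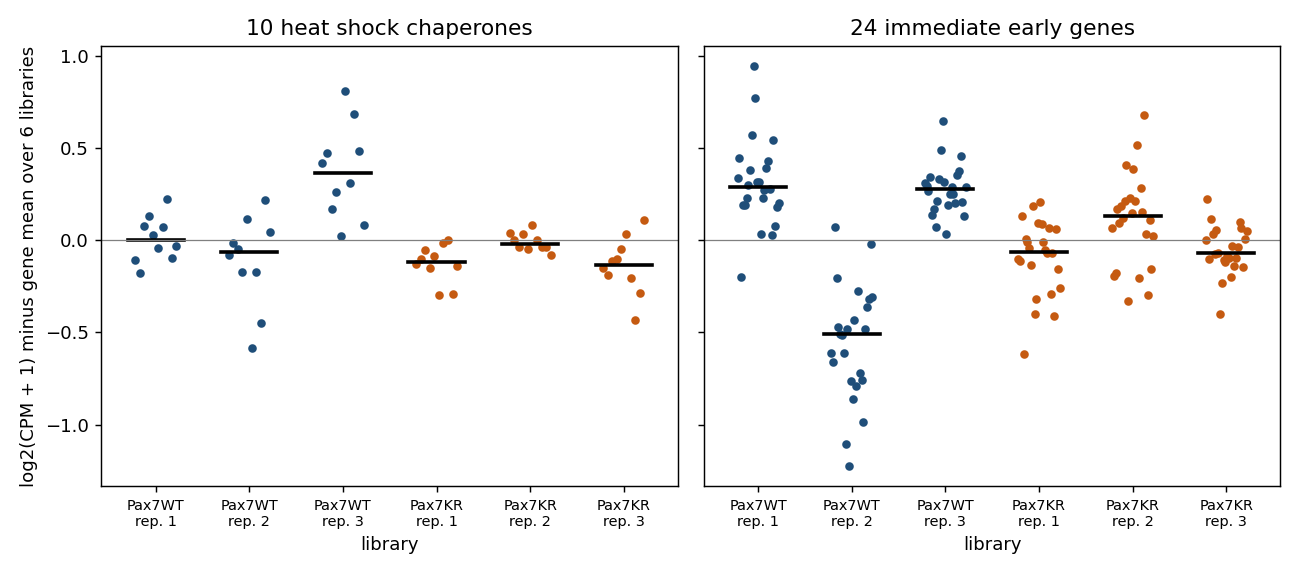
Log2(CPM + 1) of each gene minus its mean over the 6 libraries, by library, for the 10 chaperone genes (left) and 24 immediate early genes (right), with bars at the median. The chaperone genes stand highest in Pax7WT replicate 3, and the immediate early genes stand lowest in Pax7WT replicate 2.

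In each of 3 ratios, a gene or pair known for induction by stress was set against a relative taken as constitutive within the same library, as TPM. The promoter of Dnaja1, one of these relatives, also held the letters of a heat shock element. Hspa1a plus Hspa1b was 2.58, 2.95 and 3.67 times Hspa8 in Pax7WT and 2.82, 3.05 and 2.81 times Hspa8 in Pax7KR. The inducible HSP70 transcripts thus outnumbered the constitutive one in all 6 libraries. Hsp90aa1 was 0.265, 0.212 and 0.269 of Hsp90ab1 in Pax7WT and 0.231, 0.277 and 0.232 of it in Pax7KR, the opposite order for HSP90. Dnajb1 was 1.05, 0.802 and 1.29 times Dnaja1 in Pax7WT and 0.897, 0.839 and 0.815 times in Pax7KR. These ratios use TPM summed over all transcripts of a gene, so they do not compare coding transcripts alone. The coding Dnajb1-201 was at 88.1 to 200 TPM. Of the coding transcripts of Dnaja1, Dnaja1-201 was at 12.7 to 22.3 TPM and Dnaja1-205 at 0 to 42.1 TPM. Dnaja1-205 was above Dnaja1-201 in Pax7KR replicates 1 and 2 and below it in the other libraries. The difference of the mean log2 ratio, Pax7KR minus Pax7WT, was −0.07, −0.01 and −0.27 for the 3 ratios, with two-sided exact permutation p = 0.8, 1 and 0.4 and p = 1 for each after adjustment over the 3. For Dnajb1 over Dnaja1 the difference was −0.11 without Pax7WT replicate 3, −0.45 without Pax7WT replicate 2 and −0.17 from CPM. The smallest p that 3 samples against 3 allow is 0.1.

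Other chaperone genes were taken from lists by family, and 0 genes of any list passed the adjusted cut-off. Hsf1, the factor that drives the heat shock response, was flat at 77.3 to 83.6 CPM, with a log2 fold change of −0.00027 (SE 0.06), and Hsf2 lay between 27.2 and 34.2 CPM. Of 8 other HSP70 and HSP110 genes 3 were above 0 and 5 below in log2 fold change, with a median of −0.05. Hspa4 was at 175 to 187 CPM, Hspa12a at 109 to 127 CPM, and Hspa1l, which starts 546 bases from Hspa1a on the other strand, at 0.903 to 2.14 CPM. These 3 genes did not share the high value of Hspa1a in Pax7WT replicate 3.
Of 17 other J-domain genes tested, 8 were above 0 and 9 below, with Dnajb6 at 123 to 142 CPM, Dnajc5 at 123 to 135 CPM and Dnajb3 at 0.350 to 1.93 CPM. Dnajb7, Dnajb8 and Dnajb13 had 0 reads. Among 6 other small heat shock protein genes tested, 4 were below 0, with a median of −0.17, the same as that of the 10 chaperone genes. The most abundant was Cryab, the chaperone αB-crystallin, at 86.3, 74.2 and 83.3 CPM in Pax7WT and 73.8, 72.2 and 62.0 CPM in Pax7KR. Its groups did not overlap, and the log2 fold change was −0.23 ± 0.08 (SE, edgeR adjusted p = 0.992). Hspb8 was at 7.35 to 13.5 CPM and Hspb7 at 0.478 to 1.51 CPM, and Hspb3, Hspb9 and Cryaa had 0 reads.

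The mitochondrial chaperones lay in narrow ranges. Hspd1, the partner of Hspe1, was at 179 to 221 CPM with a log2 fold change of −0.08 (SE 0.07), and Hspa9, the mitochondrial HSP70, at 338 to 373 CPM with −0.02 (SE 0.06). Clpx, a subunit of a mitochondrial protease, was at 39.8, 41.0 and 42.9 CPM in Pax7WT and 49.0, 46.0 and 45.6 CPM in Pax7KR. Its groups did not overlap, with a log2 fold change of 0.19 ± 0.07 (SE, edgeR adjusted p = 0.992).
In the 13 HSP90 co-chaperones 8 were above 0 and 5 below. Cdc37, which brings kinases to HSP90, was at 140 to 159 CPM, and Fkbp4, of the steroid receptor complex, at 120 to 163 CPM. Fkbp5, a relative of Fkbp4 known as a target of the glucocorticoid receptor, was at 47.3, 60.8 and 55.6 CPM in Pax7WT and 116, 142 and 69.6 CPM in Pax7KR. All Pax7KR values lay above all Pax7WT values, and the log2 fold change of 1.01 ± 0.31 (SE, edgeR adjusted p = 0.992) missed the adjusted cut-off.

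Among 8 genes of exchange factors and the ligase CHIP, 3 were above 0 and 5 below. Bag3, which links HSP70 to small heat shock proteins and is induced by stress, was at 114, 91.1 and 118 CPM in Pax7WT and 92.7, 111 and 79.7 CPM in Pax7KR. The groups overlapped, with a log2 fold change of −0.19 (SE 0.15), while Bag6 lay between 208 and 223 CPM. The 8 subunits of TRiC, the cytosolic chaperonin for actin and tubulin, had 7 below 0, but with a median of −0.03. Their most abundant were Cct2, at 200 to 235 CPM, and Cct5, at 189 to 227 CPM, both highest in Pax7WT replicate 2, as was Cct7 at 135 to 160 CPM.
Of 17 chaperone genes of the endoplasmic reticulum 13 were below 0, with a median of −0.07. Hsp90b1 was at 351 to 456 CPM. Hspa5, the HSP70 of that compartment, was at 513, 401 and 617 CPM in Pax7WT and 376, 501 and 403 CPM in Pax7KR. It was highest in Pax7WT replicate 3, like Hspa1a, and the groups overlapped (log2 fold change −0.26, SE 0.19, adjusted p = 0.998 from edgeR).

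The genes most like the 10 were sought by the correlation, over the 6 libraries, of their log2(CPM + 1) with the mean of the 10 genes, each centred and scaled. Of 17142 other genes, 140 (0.817%) had r above 0.9. The 5 highest were D030051J21Rik (r = 0.995), Gm16409 (0.990), 2410017I17Rik (0.988), Mycl (0.986) and Sms (0.986). The first 4 had a mean under 1 CPM, and Sms, which encodes spermine synthase, was at 47.3 to 57.0 CPM. Without Pax7WT replicate 3 the r of these 5 genes was between 0.90 and 0.96, over 5 libraries. The genes were picked by their r over all 6 libraries, so the choice itself favours a high r here. Genes of the lists with r above 0.9 included Dnajb4 (r = 0.91), a J-domain partner, Hspa5 (r = 0.91) and the Schwann cell marker Mbp (r = 0.91). Each of these 3 genes had its highest value in Pax7WT replicate 3, Mbp at 58.5 CPM against 33.2 to 46.4 CPM in the others.

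The files give a value for each annotated transcript, and 5 of the 10 genes have a transcript annotated as retaining an intron. This look at transcripts was chosen after values had been seen. For Hsph1 the 3 such transcripts held 76.7, 70.7 and 77.4% of the TPM of the gene in Pax7WT and 71.2, 68.0 and 75.1% in Pax7KR. In all 6 libraries most of the Hsph1 signal was therefore assigned to transcripts that are not annotated as coding. The same was true of Dnaja1, but its transcripts of this kind are annotated as processed transcripts. Dnaja1 has none annotated as retaining an intron, so the shares given here leave it out. The retained intron share of Hsph1 exceeded that of 99.5% of 2724 abundant genes that have both coding and retained intron transcripts, for which the median was 10.8%. For Hsp90aa1 it was 49.4, 54.7 and 48.2% in Pax7WT and 50.0, 53.4 and 47.9% in Pax7KR, above 95.6% of those genes. As a share of reads, which does not divide by length, it was 58.5 to 71.7% for Hsph1 but 9.26 to 12.1% for Hsp90aa1, whose retained intron transcripts are short.
Hspa8 had 14.3 to 25.1% of its TPM on such transcripts, Hspe1 10.5 to 21.1% and Hsp90ab1 6.59 to 11.7%. These lie closer to the whole libraries, in which 7.02 to 7.64% of all TPM was on transcripts of this kind. The genotypes overlapped for all 5 genes, with exact permutation p between 0.3 and 0.9. These shares are estimates of the quantification, which divides reads among transcripts that overlap, and reads of unspliced RNA cannot be told apart from reads of these transcripts.

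**Figure D5:**
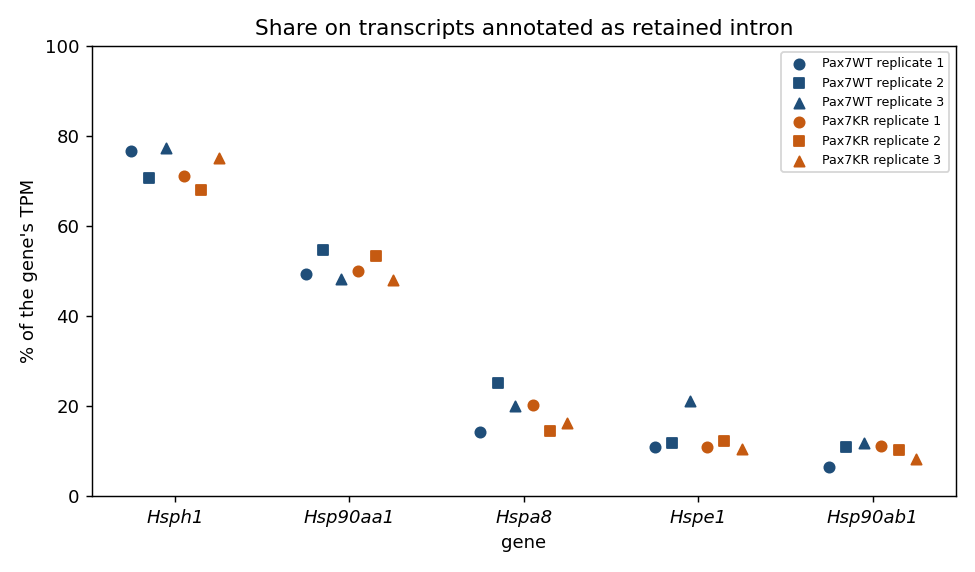
Share of the TPM of each gene on transcripts annotated as retained intron (vertical axis, %) in each of the 6 libraries, blue for Pax7WT and orange for Pax7KR. Hsph1 lies between 68.0 and 77.4% and Hsp90aa1 between 47.9 and 54.7%, and the other 3 genes at 25.1% or below.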

How the data were processed

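Directional libraries were made by the authors from total RNA and sequenced as read pairs. How rRNA was removed is not given in the sources used here. The deposited files hold salmon (1.3.0) values for each GENCODE transcript: the expected count, or estimated number of reads, which the authors did not normalise, and TPM, which is scaled by effective length. The authors' own comparison, made with DESeq2 (1.28.1), holds fold changes and p-values and was not used. Identifiers tied 139791 of 140992 transcripts to genes in GENCODE M21, a release of GRCm38 older than the authors' own, and the rest held 0.606% of reads.

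Estimated reads were summed per gene and rounded. Genes with at least 5 reads in at least 2 libraries were fitted with edgeR (4.0.16, TMM, robust quasi-likelihood, genotype as the single term) in R (4.3.3), with Benjamini-Hochberg adjustment over all of them and a cut-off of 0.1. CPM are TMM-normalised, and log2 levels have a pseudocount of 1. Ratios were tested by two-sided exact permutation. DESeq2 (1.42.0) and limma-voom (limma 3.58.1) were alternatives, as were other normalisation, filters, length offsets, unrounded reads, another cut-off, a replicate block and each library left out. The fits were tested on simulated data. No source says whether a library is 1 mouse or a pool. The p-values therefore set a difference against the spread between these samples, which may not be that between mice.

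Named genes were all 10 members, the 2 most abundant genes and the 1 with the largest fold change of each other list, and the 5 genes most correlated with the members. Dnajb4, Mbp, Dpt, Tek and the genes with 0 reads were named after their values were seen. The members and lists were chosen with earlier results of these data known.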

Additional observations from a re-analysis of the deposited data

How the results depend on the processing

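With the main test 0 genes passed the cut-off. DESeq2 called 30 genes, DESeq2 with a transcript length offset 45, and edgeR with no filter on low reads 157 of 24068 genes tested (0.652%), and leaving out 1 library gave between 1 and 32, with 32 without Pax7KR replicate 3 and 5 or fewer without any other. None of these settings called a chaperone gene except edgeR with no filter, which called 1, Hspb1 (log2 fold change −0.42, adjusted p = 0.0294). Over its other alternatives the adjusted p of Hspb1 lay between 0.269 (DESeq2) and 0.9999 (edgeR without Pax7KR replicate 2). limma-voom, median-ratio normalisation, at least 10 reads in every library, the length offset in edgeR, reads not rounded and a cut-off of 0.05 called 0 genes. Of 151 values of the 10 fold changes under alternatives, 3 changed direction, all without Pax7WT replicate 3. With 1 library left out, Hspa1a ranged from −0.27 to 0.015, Hspa1b from −0.34 to 0.0015 and Hsph1 from −0.50 to 0.24. Without Pax7WT replicate 2, Dnaja1 was at −0.27 and Dnajb1 at −0.62. In the log2 ratio of Hspa1a plus Hspa1b over Hspa8, Pax7KR minus Pax7WT ranged from −0.19 to 0.070 with 1 library left out. The value of 0.070 was that without Pax7WT replicate 3. The difference in the log2 ratio of Hsp90aa1 over Hsp90ab1, at −0.01 with all libraries, ranged from −0.12 to 0.051 and changed direction in 4 of 6 such settings, at 0.040 without Pax7WT replicate 1, 0.051 without Pax7WT replicate 3, 0.035 without Pax7KR replicate 1 and 0.031 without Pax7KR replicate 3. The cause was not tested.
Same-numbered samples deviated with correlations of 0.002, 0.04 and −0.06. These values show no shared deviation but cannot tell whether such samples were handled as pairs, which the labels do not say. With the replicate block, 13 genes and 0 of the 10 chaperone genes were called. Each of the 10 genes had at least 1017 reads in each library.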
